A study of Drosophila melanogaster with 2 samples.

Results

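The weaker peaks of ADD1 are the 22056 of 30000 joint peaks whose chromosome, start, end and summit are no line of the authors' IDR list, which holds the other 7944. They were chosen by the authors' signal, since the IDR list was the strongest stretch of the joint list. The joint list was called on both replicate alignments together. IDR, the irreproducible discovery rate, is a threshold on how well the ranks of peaks hold between replicates. The experiment was chromatin immunoprecipitation with sequencing of whole Drosophila melanogaster embryos aged 0 to 24 h, of mixed sex. All of them came from a single transgenic line (labelled strain CG8290) that stably carries ADD1 with GFP at its C terminus, and the antibody was against GFP. There is 1 group with 2 biological replicates. Both replicates carry the transgene, and no untagged embryos are among the samples analysed here. Whole embryos mix all tissues and stages, so a weak peak in every cell and a strong peak in a few cells cannot be told apart. Chromatin was sonicated, with a size range of 200 to 800 bp. The control used in peak calling was not analysed here, and the read depth is unknown.

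ADD1 carries an ADD domain, a zinc-binding fold that in the vertebrate protein ATRX reads histone H3 tails. In flies the remodelling part of ATRX is encoded by a separate gene, XNP, and ADD1 is known to bind the heterochromatin protein HP1a. Peak callers that feed an IDR analysis are run with a relaxed threshold on purpose, so that the lists reach down into peaks that do not repeat, and the lower part of such a list holds weak sites and background together.

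The sequences below are 151 bp windows centred on the summits of 10 weaker peaks, from the RefSeq assembly of Release 6 (dm6), plus strand, 5′ to 3′. They show the kinds of site that the results turn on. Capitals mark a sequence word that was searched at all summits, on either strand. The peak in siz, at chr3L:21063713-21063863, is an intronic member from the top of the weaker list, and its capitals are the GAGA factor word GAGAGAG read on the other strand. The next 4 windows are the middle members of 4 of 5 equal tiers of falling signal, tiers 1, 2, 4 and 5: an intron of Eip75B at chr3L:18003770-18003920 with the GATA word TGATAAG, intergenic sequence nearest to Toll-6 at chr3L:15369024-15369174 with the E-box CAGCTG, an intron of Indy at chr3L:18837244-18837394 with none of the words, and an intron of Fas2 at chrX:4195256-4195406 with the CA repeat CACACACA. The window nearest to ppk, at chr2L:14377076-14377226, lies in a mobile element and holds the palindrome TATCGATA, a word bound by DREF and BEAF-32. The zfh2 window, at chr4:508565-508715, is an intron on the heterochromatin-rich chromosome 4. The kirre window at chrX:3099330-3099480 and the tRNA gene window at chr3R:30248653-30248803 are promoter peaks of the gene groups described further on. The CG4467 window, at chr3R:23240385-23240535, belongs to the strongest weaker peak that neither replicate list held.
siz: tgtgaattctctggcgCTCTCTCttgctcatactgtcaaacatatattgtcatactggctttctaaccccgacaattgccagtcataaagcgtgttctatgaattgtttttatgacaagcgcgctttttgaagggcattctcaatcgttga
Eip75B: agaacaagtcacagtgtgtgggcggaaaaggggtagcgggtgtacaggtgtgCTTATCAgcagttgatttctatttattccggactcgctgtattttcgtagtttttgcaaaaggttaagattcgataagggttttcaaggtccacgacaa
Toll-6: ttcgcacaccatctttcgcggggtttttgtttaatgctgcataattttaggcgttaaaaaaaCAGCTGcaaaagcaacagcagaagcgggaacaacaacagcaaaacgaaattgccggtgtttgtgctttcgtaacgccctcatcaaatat
Indy: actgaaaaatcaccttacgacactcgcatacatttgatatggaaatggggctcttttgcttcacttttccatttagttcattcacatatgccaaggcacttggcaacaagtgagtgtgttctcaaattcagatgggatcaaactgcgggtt
Fas2: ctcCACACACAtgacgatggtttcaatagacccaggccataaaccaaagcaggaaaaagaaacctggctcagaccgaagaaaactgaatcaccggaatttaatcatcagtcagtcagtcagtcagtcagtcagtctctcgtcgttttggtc
ppk: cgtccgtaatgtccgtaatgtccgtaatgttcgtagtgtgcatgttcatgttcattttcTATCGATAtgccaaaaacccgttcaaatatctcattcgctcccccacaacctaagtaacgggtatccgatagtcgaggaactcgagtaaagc
zfh2: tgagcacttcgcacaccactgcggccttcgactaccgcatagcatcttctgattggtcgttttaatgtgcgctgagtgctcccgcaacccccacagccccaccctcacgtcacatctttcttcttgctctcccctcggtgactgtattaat
kirre: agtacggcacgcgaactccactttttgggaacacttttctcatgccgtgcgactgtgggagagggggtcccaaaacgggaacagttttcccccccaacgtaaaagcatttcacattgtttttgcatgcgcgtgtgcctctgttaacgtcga
tRNA gene Leu-TAG-1-2: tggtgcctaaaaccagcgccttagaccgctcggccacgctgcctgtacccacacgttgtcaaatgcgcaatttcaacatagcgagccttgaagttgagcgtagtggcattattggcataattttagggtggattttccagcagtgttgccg
CG4467: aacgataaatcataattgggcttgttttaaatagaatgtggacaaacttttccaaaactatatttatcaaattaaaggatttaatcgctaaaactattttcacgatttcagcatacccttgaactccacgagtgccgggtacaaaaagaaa

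The signal of the weaker peaks, a value of the authors' whose scale they did not give, ran from 29.8 to 130 with a median of 53.1. It is given as a description, because it chose the members. The boundary was continuous: the 3 weakest IDR peaks had signals of 130.11, 130.12 and 130.13, and the 3 strongest weaker peaks 130.10, 130.10 and 130.06. Ordered by signal and divided into 5 equal tiers of 4411 or 4412 peaks, from tier 1 (strongest) to tier 5, they had median signals of 104, 71.0, 53.1, 41.4 and 33.2. A q-value of at most 0.05 was listed for 7574 of the weaker peaks (34.3%): all of tier 1, 71.7% of tier 2 and 0 of the 3 others. Widths carried little information, since 20911 intervals (94.8%) had the same width of 310 bp, against 20.6% of the IDR peaks. Positions, sequence and gene content did not enter the choice, and the results below rest on them. Peaks are not replicates, so 95% intervals (exact, Clopper-Pearson) are given for counting error alone, beside the value in each replicate list. The peaks of each replicate list ranked below 7944 stand for the weaker peaks there. With 2 replicates no two-sided test on their signs can give a p-value below 0.5, and none is given.

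Weaker peaks lay mostly in introns and much less often at promoters than IDR peaks. Introns held 11438 weaker summits, 51.9% (95% interval 51.2 to 52.5), where introns make up 39.5% of the ungapped sequence of 6 chromosome arms. Promoters, taken as the sequence up to 500 bp from an annotated transcription start on either side, held 4185 weaker summits, 19.0% (18.5 to 19.5), against 13.6% of the sequence and 49.1% of the IDR summits. In the replicate lists replicate 1 had a promoter share of 19.1% and replicate 2 one of 22.6%, with a mean of 20.8% ± 2.44 (SD, n = 2), and 47.8% and 53.1% of their 7944 strongest peaks. The gap to the stronger peaks was therefore larger than the spread between the replicates in both lists. Coding exons held 590 weaker summits, 2.68% (2.47 to 2.90), against 13.7% of the sequence and 0.579% of the IDR summits. The replicate values were 2.37% and 4.52%, both above the 0.592% that each replicate showed among its strongest peaks. The 5′ untranslated regions outside promoters held 1.22% of weaker summits for 0.780% of the sequence, and 3′ untranslated regions 2.03% for 4.44%. Intergenic sequence held 21.9%, below its 27.1% of the sequence.

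With falling signal the weaker peaks moved away from promoters and toward introns, coding exons and intergenic sequence. The promoter share was 29.2% in tier 1, then 21.5%, 17.1%, 14.6% and, in tier 5, 12.5% (11.5 to 13.5). As a ratio to the share of sequence that is 2.15 in tier 1 and 0.918 in tier 5. Both replicate lists fell as well, from 28.9% to 12.9% in replicate 1 and from 33.5% to 15.2% in replicate 2. In tier 5 the ratio was 0.949 in replicate 1 and 1.12 (1.04 to 1.20) in replicate 2, where it stayed above the share of sequence. The coding exon share rose in the same order from 1.36% to 3.97%, and the intergenic share from 17.7% to 26.0%. The intron share was 47.3% in tier 1 and between 52.2% and 53.6% in the others. Its ratio to the 39.5% of sequence thus grew from 1.20 in tier 1 to 1.36 in tier 5. Promoters and intergenic peaks came closer to their shares of sequence. The intergenic ratio was 0.957 in tier 5, with 0.988 in replicate 1 and 0.809 in replicate 2. The coding exon share of tier 5 was also still far below its 13.7% of the sequence, at a ratio of 0.289. In replicate 1 it ended at 3.33% and in replicate 2 at 6.85%. The median GC content of 201 bp around the summit was 44.3% in every tier, 42.3% in the IDR list and 42.3% over windows tiling the genome.

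**Figure D1:**
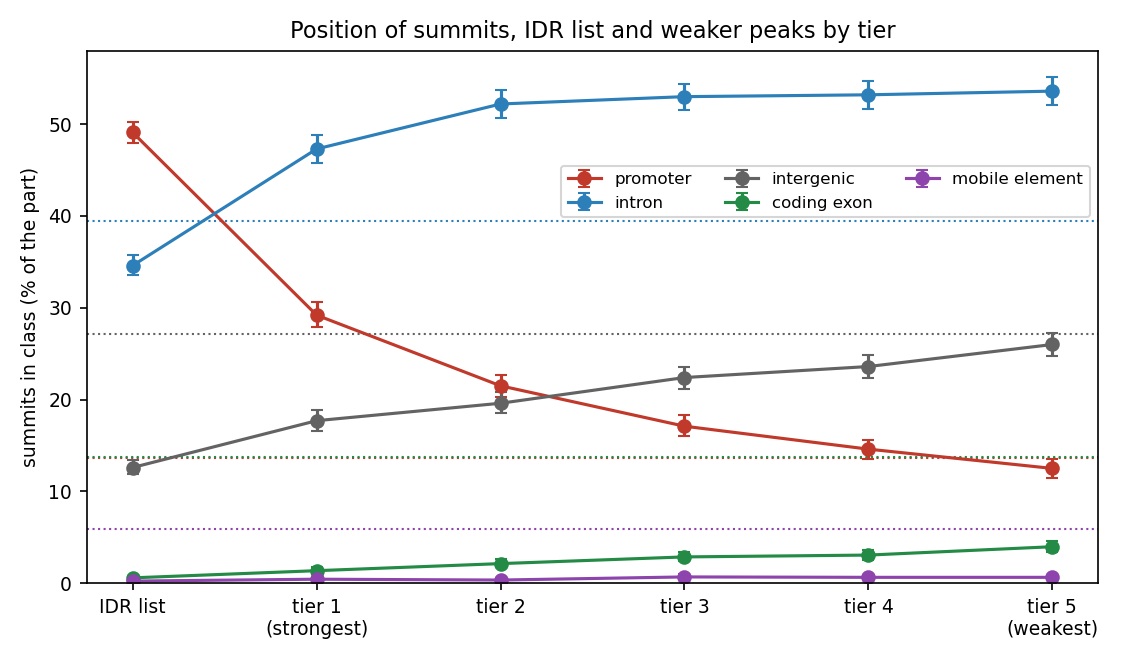
Share of summits (percent, y axis) in 5 kinds of sequence for the IDR list and the tiers of the weaker peaks in order of falling signal (x axis); bars are exact 95% intervals for counting error and dotted lines the share of ungapped sequence, those of promoters and coding exons nearly coinciding. The promoter share falls from 49.1% in the IDR list to 12.5% in tier 5, while the intron share stays above 39.5% in all 5 tiers.

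Close to starts, the weaker peaks were also less tightly placed. A protein-coding start lay within 500 bp of 3515 weaker summits, of which 43.2% lay within 100 bp of it, and 52.4% lay upstream. For the IDR list the figures were 67.5% within 100 bp and 68.7% upstream. In tier 1 55.5% lay within 100 bp of the start, and in tier 5 28.2%. The median distance from any weaker summit to its nearest start was 2212 bp, against 525 bp in the IDR list. It grew from 1387 bp in tier 1 to 2924 bp in tier 5.

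Presence in the replicate lists is not independent of the choice, because the joint and replicate lists come from the same reads. Each replicate list also stops at 30000 peaks, so absence means only that no summit within 200 bp ranked that high. Replicate 1 held a summit within 200 bp of 17051 weaker peaks (77.3%) and replicate 2 of 15498 (70.3%). Both held one for 11670 (52.9%), replicate 1 alone for 5381, replicate 2 alone for 3828, and neither for 1177 (5.34%). The sequence within 200 bp of a summit of both replicates is 5.20% of the genome examined, and 87.6% is near neither. Of the IDR peaks, 96.4% were in both. The share in both fell steeply by tier, from 91.7% through 80.1%, 56.6% and 26.0% to 10.1%. The share in neither was 0.0453% in tier 1, 0.181% in tier 2, 0.703% in tier 3, 5.83% in tier 4 and 19.9% in tier 5. Tier 1, all of it below the authors' threshold, was thus nearest to the IDR list in this measure. Where matched, tier 1 peaks had median ranks of 10449 in replicate 1 and 11558 in replicate 2, and tier 5 peaks 23486 and 23398.

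**Figure D2:**
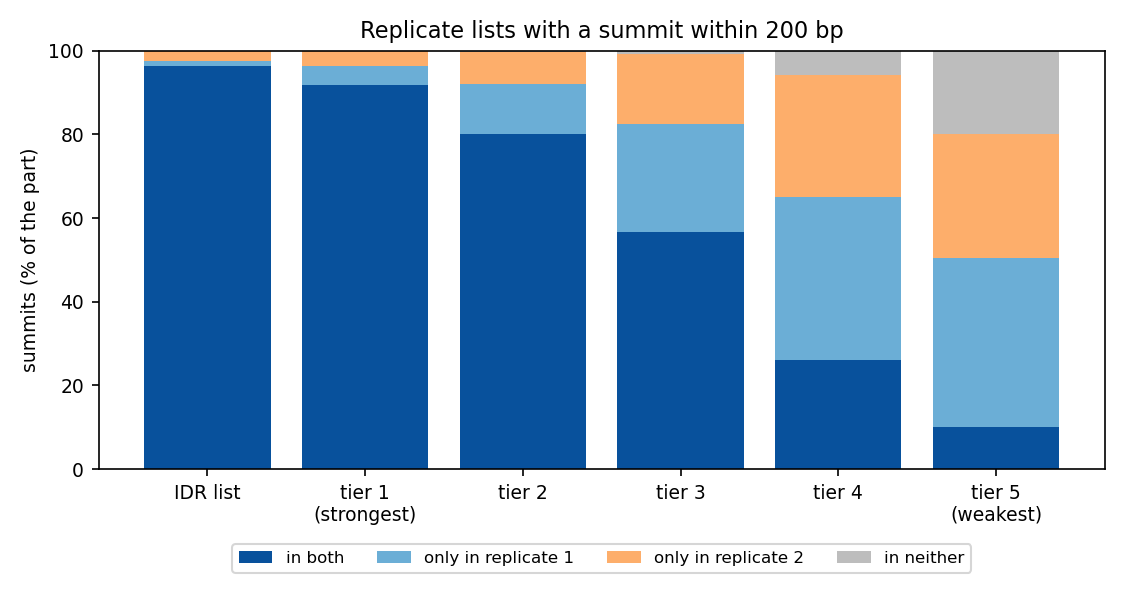
Percentage of peaks (y axis) with a summit within 200 bp in both replicate lists, in 1 of them or in neither, for the IDR list and the tiers of the weaker peaks by falling signal (x axis). The dark part, present in both, falls from 91.7% in tier 1 to 10.1% in tier 5, where 19.9% are in neither.

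The middle member of each tier serves as an example of single peaks, not of its tier's share. The Eip75B peak (FBgn0000568, a nuclear receptor gene induced by the moulting hormone ecdysone), with a joint signal of 104, ranked 11184 with a signal of 55.2 in replicate 1 and 11989 with 46.8 in replicate 2. The Toll-6 peak (FBgn0036494, a Toll-family receptor), with a joint signal of 71.0, ranked 11721 in replicate 1 and was not matched in replicate 2. The side-VIII peak (FBgn0086604), with a joint signal of 53.1, ranked 16172 in replicate 1 only. The peak in Indy (FBgn0036816, a citrate transporter), with a joint signal of 41.4, ranked 19289 in replicate 2 only. The peak in Fas2 (FBgn0000635, a neural cell adhesion molecule), with a joint signal of 33.2, was matched in neither. Of these 5 peaks the Eip75B peak alone was found in both, although most peaks of tiers 2 and 3 were.

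Presence in both lists differed between kinds of sequence. It was 60.9% for weaker promoter peaks, 52.3% for introns, 48.7% for intergenic peaks and 43.2% for coding exons. Promoter peaks exceeded coding exon peaks in tiers 4 and 5 but not in tiers 1 to 3. In tier 1, coding exon peaks were in both in 91.7% of cases and promoter peaks in 89.1%, in tier 2 in 85.1% and 75.7%, in tier 3 in 62.7% and 55.4%, and in tier 4 in 25.9% and 28.5%. In tier 5, 14.5% of promoter peaks, 10.5% of intron peaks and 3.43% of coding exon peaks were in both. Read the other way, the promoter share in tier 5 was 18.0% (14.6 to 21.9) of peaks in both lists, 12.9% (11.7 to 14.1) of those in 1 list and 8.19% (6.46 to 10.2) of those in neither. In tier 1 the order was opposite, with promoters making up 28.4% (27.0 to 29.8) of the peaks in both and 38.1% (33.1 to 43.3) of the 362 in 1 list.

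Peaks found in only 1 replicate differed by which one it was. Those only in replicate 1 were promoter peaks in 14.3%, coding exon peaks in 2.08% and mobile element peaks in 0.966% of cases. Those only in replicate 2 were so in 19.9%, 4.28% and 0.340%. Their median GC content differed as well, 41.8% for replicate 1 alone and 46.8% for replicate 2 alone, against 44.3% for peaks in both. The part of base composition in these shares was not tested.

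The strongest weaker peaks named by rank carried signals that round to 130. Dhit, CG9205, Tsp5D (a tetraspanin) and CG18259 had theirs at a promoter. The peaks of siz, sbb, mtd, nahoda, shn and hth lay in introns, those of chif and klar in 5′ untranslated regions and that of CG14642 in a coding exon. The remaining peaks, nearest to lncRNA:CR44552 and CG7320, were intergenic. For hth, which encodes the homeodomain partner of Hox proteins, the replicate ranks were 6251 and 17615, and for Tsp5D 4794 and 11277. The Dhit and shn peaks had no match in replicate 1, with ranks of 9505 and 10398 in replicate 2. For hth and Tsp5D the replicate ranks thus lay far apart, within the strongest 7944 of replicate 1 but not of replicate 2. The same sides held for the peaks of sbb, mtd, CG9205, chif, nahoda, CG14642, klar and CG18259. The lncRNA:CR44552, siz and CG7320 peaks ranked below 7944 in both. Over tier 1, 17.1% of peaks were matched among the 7944 strongest of replicate 1 and 14.7% among those of replicate 2.

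Weaker peaks were neighbours of IDR peaks at 1000 bp more often than the sequence gives, and were seldom part of the same interval. Within 1000 bp of an IDR summit lay 5159 of them, 23.4% (22.8 to 24.0), where 9.83% of the sequence lies so close. In the replicate lists nearness was taken to each list's own 7944 strongest summits, and was 22.9% in replicate 1 and 23.5% in replicate 2. No share of sequence was computed for those summits. For the joint list, nearness to IDR summits fell from 30.7% in tier 1 to 18.2% in tier 5. Within 500 bp lay 6.10% of weaker summits for 5.55% of the sequence, a ratio of 1.10, which was 1.40 in tier 1, 0.949 in tier 4 and 0.781 in tier 5. That share of sequence includes the bases under the IDR peaks themselves, where separate summits were seldom listed. The ratio at 500 bp therefore cannot show whether weaker peaks cluster close to IDR peaks. Only 143 (0.648%) lay within 200 bp of an IDR summit, and 406 intervals (1.84%) overlapped an IDR interval. The median distance to the nearest IDR summit was 2692 bp.

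Long genes held many weaker peaks. Of 13945 protein-coding genes, 3357 contained at least 1 weaker summit and 455 contained 10 or more. Those 455 had a median length of 41305 bp, against 2166 bp for all coding genes. Together they cover 17.6% of the sequence and held 8525 weaker summits, or 38.7%, a ratio of 2.19. They held 26.5% of the IDR summits. In the replicate lists the shares were 37.3% and 35.0%. These genes were picked for their count, so that ratio is a description.

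The genes holding the most were named after their values were seen. kirre, which encodes a founder-cell adhesion protein of myoblast fusion, led with 107 weaker summits and 23 IDR summits over 394149 bp. The replicate lists had 106 and 86 there. bun, a gene of the TSC22 family, held 79 weaker and 28 IDR summits. The overlapping genes CG46467 and Glut4EF shared 73. The Wingless receptor gene fz2 held 71, hth 68, luna 61, Eip75B 60, the translational repressor gene pum 59 and the planar polarity receptor gene fz 57. For pum the replicates stood apart, with 61 and 35. Per length, among genes with at least 20 weaker summits, Atf3 had 10.8 per 10 kb and sty, an inhibitor of receptor tyrosine kinase signalling, 10.5, where the whole sequence has 1.65.

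**Figure D3:**
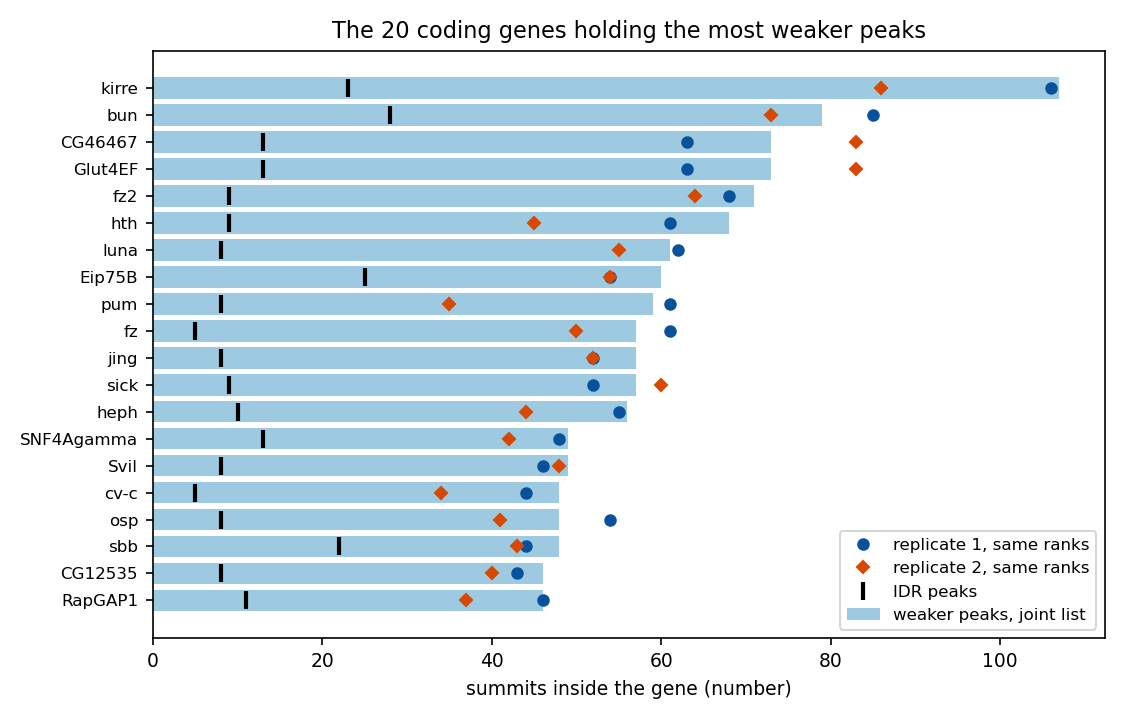
Number of weaker summits (bars, x axis) inside each of the 20 protein-coding genes that hold the most, with peaks below rank 7944 in replicate 1 (circles) and replicate 2 (diamonds) and IDR peaks (vertical marks). kirre leads with 107 weaker summits, 106 in replicate 1 and 86 in replicate 2; CG46467 and Glut4EF overlap and share their peaks.

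At the level of genes, the weaker list added promoters to those in the IDR list. An IDR promoter peak was found at 3638 protein-coding genes (26.1%), and a weaker promoter peak with no IDR one at a further 1645, a background share of 11.8% of all coding genes. Over all 18164 genes, RNA genes included, the background share was 12.8%. The replicate lists gave 12.2% and 15.7% for coding genes. The gene groups below are read against those shares. A gene with an IDR promoter peak cannot be of this kind, which lowers the share of groups rich in such genes. Among genes without an IDR promoter peak, the share was 16.0% of coding genes and 16.6% of all genes. No set test was made, and a summit can count for several genes with close starts.

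Among 23 muscle genes, 10 (43.5%, 23.2 to 65.5) had a weaker promoter peak and no IDR one, and 7 had an IDR one. The 10 are 62.5% of the 16 muscle genes without an IDR promoter peak. The values in the replicates were 47.8% and 56.5%, each above the 12.2% and 15.7% of coding genes there. Those shares are not of the same 10 genes. Both include how, which had an IDR promoter peak in the joint list. Replicate 2 also includes htl, Mlp84B and Him but not rols. The Tm2 peak (tropomyosin 2) had a joint signal of 120 and ranks of 9175 and 11107 in the replicates. The bt peak (projectin, a titin-like protein) had a joint signal of 116 and ranks of 10902 and 8844. The kirre peak had a joint signal of 113 and ranks of 11599 and 8696. All 3 were therefore below rank 7944 in both replicates. The other members, named after their values were seen, were rols, needed for myoblast fusion, and genes of the contractile apparatus. The latter were Mlc2 (myosin regulatory light chain), Mhc (myosin heavy chain), up and wupA (troponin T and I), and the actins Act57B and Act87E. Their joint signals ran from 53.0 at Act87E to 105.3 at rols, and rols alone had a promoter peak among the strongest 7944 of a replicate, replicate 2.

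Of 295 tRNA genes, 101 (34.2%, 28.8 to 40.0) had a weaker promoter peak only and 63 an IDR one, against the background of 12.8%. The 101 are 43.5% of the 232 tRNA genes without an IDR promoter peak. The replicates gave 34.9% and 28.8%. tRNA genes stand in clusters, and the 101 genes shared 74 strongest summits. The interval above and the counts by amino acid below treat genes that share a summit as separate. The Leu-TAG-1-2 gene had a joint signal of 130 and ranks of 7730 and 9733. The genes Lys-CTT-1-12 and Cys-GCA-1-3 shared 1 peak with a signal of 129 and ranks of 9058 and 6215. By amino acid, among isotypes of at least 10 genes the shares were highest for asparagine (6 of 10), threonine (10 of 18) and leucine (12 of 22). Of smaller isotypes, 0 of 6 histidine, 1 of 8 tryptophan and 4 of 7 cysteine genes were of this kind. Of 306 small nuclear and nucleolar RNA genes, 28 (9.15%) were, which is not above the background.

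Of 108 cuticle protein genes, 2 had an IDR promoter peak and 20 (18.5%, 11.7 to 27.1) only a weaker one. Among cuticle genes without an IDR promoter peak that is 18.9%, near the 16.0% of coding genes. The replicates gave 22.2% and 15.7%, the second equal to the share of coding genes in that replicate. The Tweedle genes led, TwdlG with a joint signal of 99.6 and ranks of 14853 and 9917, TwdlN with 90.1 and ranks of 13891 and 13210, and TwdlP with 88.0 and ranks of 14769 and 13656. The Lcp65Ag genes in this group are near-identical copies, and how the authors treated reads that map to several places is not given in the sources used here. Of 36 cell cycle and replication genes 8 (22.2%, 10.1 to 39.2) were of this kind, but the replicates differed, with 11.1% and 30.6%. The 8 are 33.3% of the 24 genes of that group without an IDR promoter peak. The Cdk4 peak had a joint signal of 115 and ranks of 7623 and 14336. fzr, an activator of the anaphase-promoting complex, had 105 and ranks of 13566 and 6544. The mitotic kinase gene Cdk1 shared a peak of signal 112 with the neighbouring ribosomal gene mRpS7, at rank 6811 in replicate 1 and unmatched in replicate 2.

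Most other groups were near or below the background. Among genes without an IDR promoter peak, the signalling group stood above the 16.0% of coding genes, at 23.5% of only 17 genes. The germ line group stood at 17.6% of 17, the neural group at 16.7% of 18 and the heterochromatin group at 11.1% of 18. In the heterochromatin group 2 of 27 genes had only a weaker promoter peak: HP1b, a paralogue of HP1a, with a signal of 59.2 and ranks of 22968 and 21834, and del, a partner of Rhino in piRNA clusters, with 57.7 and ranks of 20419 and 14953. In the germ line group there were 3 of 23: the differentiation gene bam with a signal of 122, the piRNA factor mael with 121 and the germ line transcription factor gene ovo with 48.1. In the signalling group there were 4 of 40, among them Pvf1, a ligand of the PDGF and VEGF receptor family, with 128, the Notch ligand gene Ser with 102 and the receptor tyrosine kinase gene Alk with 89.3. In the neural group there were 3 of 32: the sodium channel gene para with 52.9, ChAT, which makes acetylcholine, with 47.5 and the neuroblast gene wor with 40.8. None of the 3 neural peaks was matched in both replicates.

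The cytoplasmic ribosome had 72 of 86 genes in the IDR list and 6 among the weaker peaks only. Those 6 are 6.98% of the group, but 42.9% of its 14 genes without an IDR promoter peak. Over all coding genes without one the share is 16.0%, but 14 genes are too few to weigh against it. The 6 were led by RpL26 with a signal of 130, RpS19b with 125 and RpL21 with 123. The RpS19b summit lay 359 bp from that gene's start but 23 bp from the start of CG5854. The RpL26 peak ranked 5610 in replicate 1. The mitochondrial ribosome had 6 of 73 (14.3% of those without an IDR promoter peak), led by mRpS5, mRpS7 and mRpL22 with 113, 112 and 110. The proteasome had 3 of 40 (10.3% of those without): Prosalpha4 with 105, Rpt2 with 90.5 and Prosbeta6 with 84.2. Chemoreceptor and odorant-binding genes had 12 of 230 (5.22%), led by Obp83g with 109, Obp83ef with 75.6 and Gr93a with 74.0.

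In several regulator groups a single gene had only a weaker peak. It was Antp (a Hox gene, signal 66.7) of 32 Hox and segmentation genes, and phol (a DNA-binding Polycomb group protein, joint rank 11017) of 19 Polycomb group genes. It was osa (a subunit of the Brahma complex, 127) of 21 trithorax and remodeller genes. It was srp (a GATA factor of fat body and blood, 60.0) of 25 gut, trachea, fat body and blood genes, and the small heat shock gene Hsp23 (114) of 23 heat shock and chaperone genes. The Hsp23 peak ranked 29757 in replicate 1 and 4995 in replicate 2. In the joint list there was none among 22 insulator genes, of which 15 had an IDR promoter peak. There was also none among 24 dorsoventral and early zygotic genes, of which 9 did. Only 7 insulator and 15 dorsoventral genes lacked an IDR promoter peak and could count, too few to read a lack from. The replicate shares differed in most of these groups. For insulator genes they were 0 in replicate 1 and 9.09% in replicate 2, and for dorsoventral genes 4.17% and 8.33%. For trithorax genes they were 4.76% and 23.8%, the second above the 15.7% of coding genes in replicate 2. For gut, trachea, fat body and blood genes replicate 1 gave 16.0%, above its 12.2% of coding genes, and replicate 2 gave less. Heat shock genes had 8.70% in both.

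**Figure D4:**
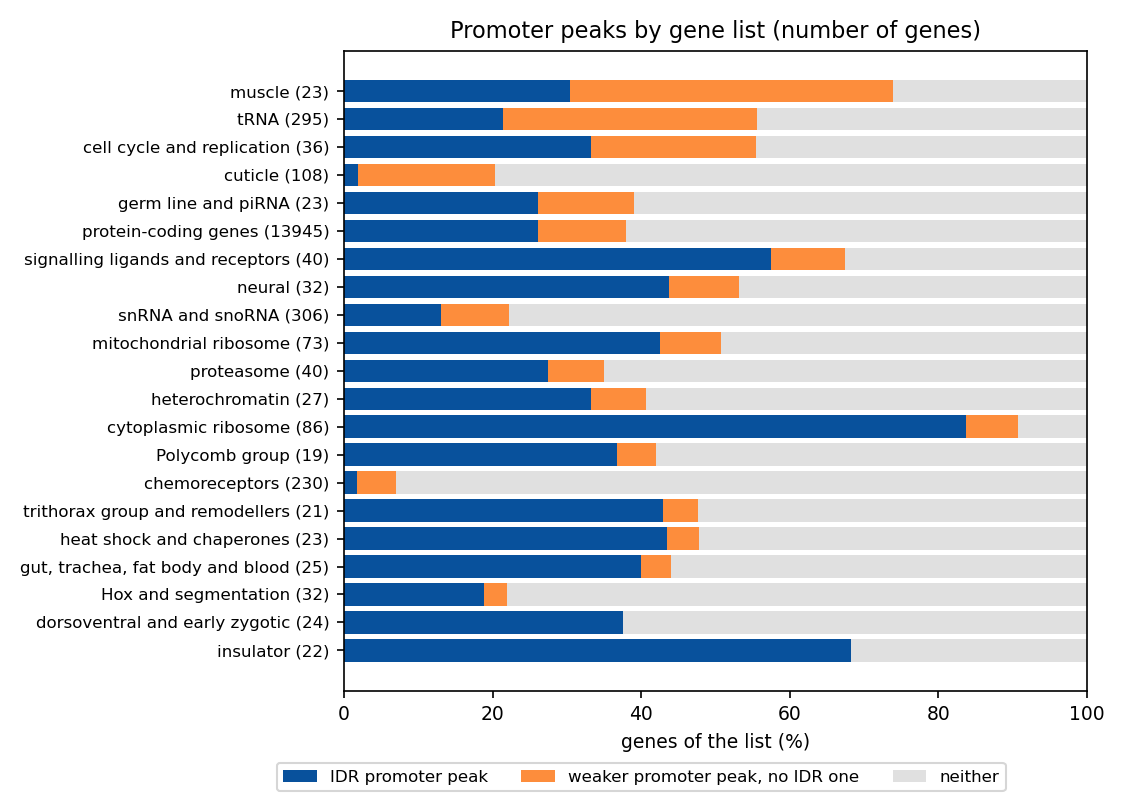
Percentage of genes (x axis) with an IDR promoter peak, with a weaker promoter peak and no IDR one, or with neither, for 20 gene groups and all protein-coding genes; the number of genes is in brackets. The weaker-only part reaches 43.5% in muscle and 34.2% in tRNA genes, against 11.8% of protein-coding genes.

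Mobile elements and repeat-rich windows, where HP1a is known to be concentrated, held few weaker peaks and few IDR peaks. Annotated mobile elements held 120 weaker summits, 0.544% (0.451 to 0.650), for 5.94% of the sequence. The replicates gave 0.730% and 0.331%. In the IDR list the share was lower still, 0.227%. The share was between 0.340% and 0.680% in every tier, so it stayed low down to the end of the list. The elements were INE-1 in 50 cases, 1360 in 25, and Cr1a and H in 5 each. By signal the first were a promoter peak of the piRNA cluster transcript lncRNA:flam (129, replicate ranks 6771 and 14682) and the ppk peak (129, ranks 8134 and 8201). Peaks nearest to lncRNA:CR44923 (125) and lncRNA:CR44440 (123), and one in an intron of the piRNA factor gene AGO3 (113), followed. Windows of 100 kb on the large arms with at least 50% soft-masked (repeat) sequence held 21 weaker summits, 0.0952% for 1.46% of the sequence, and 0.151% of the IDR summits. Soft-masked sequence as a whole held 13.6% of weaker summits for 20.1% of the sequence, a ratio of 0.677, and 11.5% of the IDR summits. The handling of repeated sequence by the aligner, which sets what can be seen here, is not given in the sources used here.

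Chromosome 4, a small arm rich in heterochromatin marks, held 164 weaker summits or 123 per Mb, the lowest density of the 6 arms, whose others ran from 151 to 178. The replicates disagreed, with 163 per Mb in replicate 1 and 96.2 in replicate 2. Of these peaks 42.1% were in both replicate lists and 28.0% (21.3 to 35.6) were at promoters. Its strongest members were promoter peaks of Cadps (128) and CaMKII (126), which act at synapses, and intron peaks of zfh2 (125) and Mitf (124). The Cadps peak ranked 4865 in replicate 1 and was unmatched in replicate 2, while the zfh2 peak ranked 12580 and 6548.

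The genes of ADD1, HP1a and other heterochromatin factors followed in any case had no weaker peak at their own starts. The nearest weaker summit to a start lay 18978 bp away for ADD1, 5724 bp for the HP1a gene, 12036 bp for Su(var)3-9 (a histone H3 lysine methyltransferase), 10202 bp for XNP and 12228 bp for the methyltransferase gene egg. The one nearest to ADD1 had a signal of 31.3 and rank 26673 in replicate 1, with no match in replicate 2.

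The strongest weaker peaks in coding exons were those of CG14642, CG42327 (128), su(w[a]) (125), Mdh2 (125, mitochondrial malate dehydrogenase) and Rac2 (124). All 5 were matched in both replicates, but at unequal ranks: 18931 and 4954 for Mdh2, 13023 and 5871 for CG42327, 6889 and 12521 for Rac2. The coding exon peaks had the highest median GC content of the 7 classes, 53.2%.

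The strongest peaks with no summit within 200 bp in either replicate list were the promoter peaks of CG4467 (110) and GC (102), an intron peak of robo2 (83.1), an intergenic peak nearest to MsR2 (82.0) and a promoter peak of Rbfox1 (78.6). The GC peak missed a match narrowly, with the nearest replicate 2 summit at 220 bp. The nearest summit of either list was 337 bp from the Rbfox1 peak, in replicate 1, and 422 bp from the CG4467 peak, in replicate 2. The MsR2 peak had none within 14412 bp in either list. The first 4 had GC contents of 32.3% to 33.8%, below the median of 43.8% for the 1177 such peaks, and Rbfox1 had 44.8%.

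The DREF and BEAF-32 word thinned out at the summits with falling signal, as promoters did. Each of 8 words was searched on both strands within 100 bp of the summit and in windows of the same size 500 bp to each side. The DREF and BEAF-32 word TATCGATA was at 188 weaker summits, 0.852% (0.735 to 0.983), and in 0.592% of flanks, a ratio of 1.44. In the IDR list it was at 4.24% with a ratio of 4.46. By tier the ratio was 2.77, 1.83, 0.906, 1.11 and 0.654. From tier 3 on the word was thus about as frequent beside the summits as at them. Tiers 3 to 5 rested on 24, 31 and 17 summits, too few to read an order among them. The replicates gave ratios of 1.37 and 1.80. At weaker promoter peaks the ratio was 2.15, and at the other weaker peaks 0.962. The M1BP word GGTCACACT, found at 91 weaker summits, had a ratio of 3.20 in tier 1 and 5.76 in the IDR list. It rested on 9 to 17 summits in each later tier, too few to read an order.

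The GAGA factor word GAGAGAG was at 4.81% (4.53 to 5.10) of weaker summits and 6.60% (6.06 to 7.16) of IDR summits, with ratios to the flanks of 1.45 and 1.40. The ratio was 1.75 in tier 1 and 1.14 in tier 5. Below rank 7944 it was 1.39 in replicate 1 and 1.46 in replicate 2, against 1.23 and 1.60 among their strongest peaks, so the replicates differed in direction. In the weaker peaks matched in both replicates it was 1.65, and in those matched in neither 1.04. The CA repeat CACACACA had a ratio of 1.43, with 1.25 and 1.53 in the replicates, and 1.15 in the IDR list. The GATA word TGATAAG went from 1.31 in tier 1 to 1.00 in tier 5, but the stronger IDR list had only 1.19. The E-box CAGCTG had 1.19 and the Zelda word CAGGTAG 0.945. Runs of A, searched as AAAAAAAA, were at 6.82% of weaker summits and 13.5% of flanks, a ratio of 0.506, which was 0.473 in tier 1 and 0.583 in tier 5. Of 201 bp windows tiling the genome, 0.564% held TATCGATA, 0.201% GGTCACACT, 2.45% GAGAGAG, 4.09% CACACACA, 2.71% TGATAAG, 8.39% CAGCTG, 1.09% CAGGTAG and 10.6% AAAAAAAA. A match is a stretch of letters and no measure of binding by the factor.

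**Figure D5:**
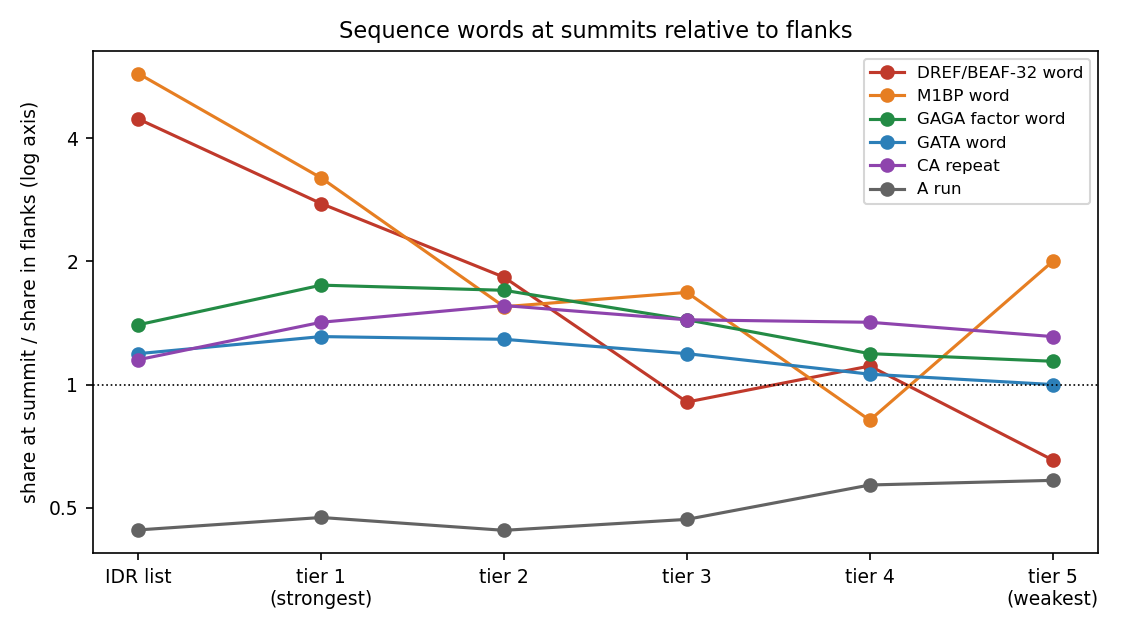
Share of summits with a sequence word within 100 bp divided by the share in flanking windows (log y axis), for the IDR list and the tiers of the weaker peaks by falling signal (x axis); the dotted line marks a ratio of 1. The DREF/BEAF-32 word falls from 4.46 in the IDR list to 2.77 in tier 1 and 0.654 in tier 5, the last on 17 summits. The A run stays between 0.440 and 0.583 in the tiers.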

How the data were processed

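ADD1-GFP binding was measured by ChIP-seq in 2 biological replicates of 1 group of embryos. Per the deposited descriptions, peaks were called on dm6 for each replicate against a control alignment, and for both replicates jointly against one. The IDR list drew on the other 3. Which caller, aligner and filters were used is not given in the sources used here. The signal and the −log10 q-value of each peak are the authors' deposited values. Peaks were ranked by signal within each list, never across lists. Depth is unknown, and intervals cover counting error only.

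Summits were assigned to 1 of 7 classes in the order promoter, 5′ untranslated, coding, 3′ untranslated and noncoding exon, intron, intergenic, with Ensembl release 115 genes on Release 6. Mobile elements came from the same Ensembl annotation, and the sequence with its soft-masking from RefSeq. The reference for each share was the fraction of ungapped sequence in the class. Flank shares average both sides. The functions were tested on simulated data. Python 3.11.15, numpy 2.4.6, pandas 2.3.3 and scipy 1.17.1 were used.

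The members, gene lists and words were chosen with earlier results of these data known. By rule, the genes named were those of the 15 strongest weaker peaks, the middle peak of each tier, the 5 strongest peaks in coding exons, in mobile elements, on chromosome 4 and without a replicate match, up to 3 genes per list, and ADD1, the HP1a gene, Su(var)3-9, XNP and egg. Of the list names, 11 were not used here. Alternatives changed the promoter width, the matching distance, the near distance, the word window and the set of peaks, including each replicate list alone.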

Additional observations from a re-analysis of the deposited data

How the results depend on the processing

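No paired analysis was possible because there is 1 group. With promoters of 200 and 1000 bp, 11.5% and 31.4% of weaker peaks were at promoters, against 19.0%. The share was 23.7% above the median signal, 16.2% away from IDR summits, 21.8% for peaks in both replicate lists and 19.1% to 22.6% in single replicates. Its ratio to sequence, 1.40, was 1.86 at 200 bp, 1.75 above the median signal and 1.41 to 1.66 in single replicates, settings chosen after seeing the data. The promoter share of tier 1 minus tier 5, 16.8 percentage points, was 19.1 at 1000 bp, 13.3 for peaks in both lists and 16.0 to 18.4 in single replicates, and was positive under all 6 alternatives run. Coding genes with only a weaker promoter peak were 12.2% to 15.7% in single replicates. Presence in both lists, 52.9%, was 27.5% within 50 bp, 58.2% by overlap, 81.7% above the median signal and 50.4% away from IDR summits. Presence in neither, 5.34%, was 17.8%, 4.67% and 0.209% under the first 3 of these. Mobile elements held 0.331% to 0.730% in single replicates, 1.22% by interval overlap, and soft-masked sequence 13.6% (20.1% of the sequence). Nearness to IDR summits, 23.4%, was 27.4% above the median signal, 6.10% at 500 bp and 1.84% by overlap. Single replicates gave 22.9% to 23.5%, taken to each list's own 7944 strongest summits. At 500 bp the sequence itself gives 5.55%, the bases under the IDR peaks included. The TATCGATA ratio, 1.44, was 2.15 above the median signal and 1.37 to 1.80 in single replicates. Wider or stricter definitions change these counts by construction. The unknown depth limits what absence from a replicate list can show.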
